A study of Mus musculus with 12 samples.

Results

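The ISG15 conjugation system was followed in macrophages through the transcript of Ube2l6, its E2 enzyme, which was called higher 4 h and 8 h after Ifn-β, with its highest level at 8 h and a lower one at 24 h. Of the 5 listed genes of the system, Isg15, Usp18, Uba7, Ube2l6 and Herc6, 1 could be followed, because a gene was used only where the array annotation gives exactly 1 symbol to a transcript cluster, the set of probes summarized for one gene. Ube2l6 was transcript cluster 6878709, the only cluster with that symbol. The cluster of Uba7 carries a second symbol, Cdhr4, so its values were not used, and the levels of Isg15, Usp18 and Herc6 were not analysed here, as the annotation matched no cluster to them. The 12 arrays hold 23332 transcript clusters, and 14860 genes have exactly 1 symbol.

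The cells were bone marrow derived macrophages (BMDM) of male Balb-C mice aged 8 to 9 weeks, grown in colony stimulating factor-1 (CSF1), which all groups received. Cells were given 10 U/ml recombinant mouse Ifn-β and collected after 1, 2, 4, 8 or 24 h, and the 0 h cells were collected before treatment. RNA of 2 separate wells per time was hybridized to Mouse Exon 1.0 ST arrays, and the labels do not say whether the wells came from different mice. No untreated cells were collected at the later times, so time in culture and time after Ifn-β cannot be told apart, and every change from 0 h shares the same 2 arrays.

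ISG15 is a small ubiquitin-like protein made in cells that have met type I interferon. The E1 enzyme Uba7 activates it, the E2 enzyme Ube2l6 (UbcH8) receives it, and an E3 ligase, Herc6 in mouse and HERC5 in human, directs it to lysines of target proteins. The protease Usp18 takes ISG15 off again, and it also binds the interferon receptor and dampens its signal. Genes of this system belong to the interferon-stimulated genes, which the ISGF3 complex, with Stat2 and Irf9 among its parts, switches on through interferon-stimulated response elements (ISRE) in DNA.

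Promoter windows are shown for Ube2l6, for the gene whose levels followed it most closely and for a gene of ISGF3, so that the presence or absence of an ISRE core near the start can be read. Each runs from 250 bases before the annotated start to 50 after it in RefSeq (GRCm38.p6), 5′ to 3′ on the gene's strand. Ube2l6 lies on chr2, from 84798828 to 84810003 on the plus strand, and its window is chr2:84798578-84798877. In it, capitals mark the transcribed bases from the start on. The windows of Lgals9 (chr11:78984875-78985174, minus strand) and Stat2 (chr10:128270248-128270547, plus strand) have in capitals the ISRE core, which is GAAA, 2 free bases and GAAA again, on either strand.
Ube2l6: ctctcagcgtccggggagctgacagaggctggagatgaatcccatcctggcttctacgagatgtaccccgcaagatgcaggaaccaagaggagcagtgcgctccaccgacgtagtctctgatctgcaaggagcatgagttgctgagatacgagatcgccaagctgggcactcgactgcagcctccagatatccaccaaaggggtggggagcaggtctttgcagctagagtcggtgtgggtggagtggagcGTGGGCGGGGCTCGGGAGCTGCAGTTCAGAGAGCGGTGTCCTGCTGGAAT
Lgals9: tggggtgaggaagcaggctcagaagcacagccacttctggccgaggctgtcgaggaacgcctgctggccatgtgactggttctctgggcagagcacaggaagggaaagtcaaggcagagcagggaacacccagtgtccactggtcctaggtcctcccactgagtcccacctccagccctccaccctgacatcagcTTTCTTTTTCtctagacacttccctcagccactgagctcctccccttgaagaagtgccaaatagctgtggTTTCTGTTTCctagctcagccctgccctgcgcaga
Stat2: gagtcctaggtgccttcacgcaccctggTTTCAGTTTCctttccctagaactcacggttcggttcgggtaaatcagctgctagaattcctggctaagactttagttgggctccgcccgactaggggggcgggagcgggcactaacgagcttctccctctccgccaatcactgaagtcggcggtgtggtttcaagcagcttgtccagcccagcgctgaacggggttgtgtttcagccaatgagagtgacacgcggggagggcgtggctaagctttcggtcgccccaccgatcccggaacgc

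The Ube2l6 window held no ISRE core and no core of the gamma-activated site, TTCNNNGAA, on either strand. Among 32851 RefSeq windows of this length, 3.44% held the ISRE core and 8.3% held TTCNNNGAA. The Lgals9 window held 2 ISRE cores, with first bases at -55 and 15 from the start, and the Stat2 window held 1, with its first base at -222. Among the other listed genes, the window of Isg15 held 3 overlapping ISRE cores. Those of Uba7 and Herc6 held none, like that of Ube2l6, and Usp18 has no window. Of 9 called related genes with a window, 5 had an ISRE core and 4 had none, among them Irf9, whose 2 windows held 0. The 5 include Skp2, which was called lower and had the core in 1 of its 2 windows. Counted by gene, 1079 of 27025 had an ISRE core. These are matches of letters within the window shown, and binding was not measured.

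Ube2l6 gave a signal before treatment, at 10.66 and 10.54 on the log2 scale in the 0 h arrays. After Ifn-β its 1 h arrays gave 10.95 and 10.98, the 2 h arrays 11.17 and 11.13, and the 4 h arrays 11.5 and 11.55. The 8 h arrays gave 11.71 and 11.76, and the 24 h arrays 11.14 and 11.17. Arrays of one time lay 0.03 to 0.12 apart, and both arrays of every later time were above both arrays of 0 h, with the highest pair at 8 h. On these whole-culture arrays, more RNA per cell and more cells with the RNA cannot be told apart.

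**Figure D1:**
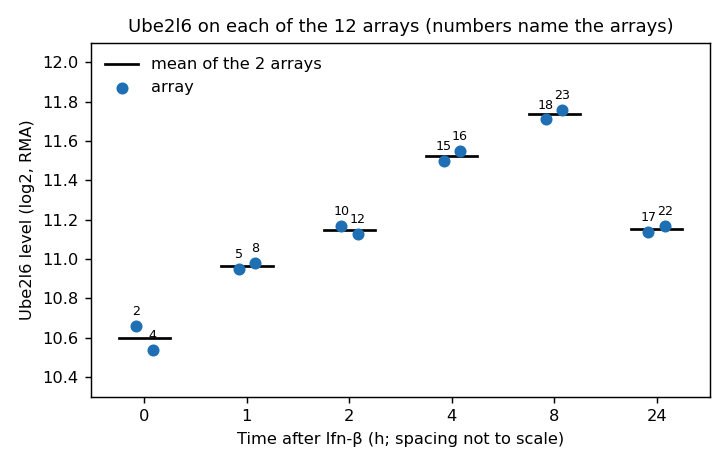
Log2 level of Ube2l6 on each of the 12 arrays against hours after Ifn-β. Points are arrays, bars are the means of 2 arrays, and the level climbed from a mean of 10.6 at 0 h to 11.74 at 8 h before it stood at 11.16 at 24 h.

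Ube2l6 was called higher at 4 h and at 8 h, where a call means a limma Benjamini-Hochberg adjusted p under 0.05 over all clusters and at least a 1.5-fold change. The change from 0 h was 0.925 on the log2 scale at 4 h, or 1.90-fold (SE 0.0915, limma adjusted p = 0.000522, n = 2 arrays per time). It was 1.135 at 8 h, or 2.20-fold (95% interval 0.925 to 1.345, limma adjusted p = 0.000307). At those times 3.59% and 1.5% of all clusters were called higher. At 2 h the change of 0.55 and at 24 h the change of 0.555 passed the test on adjusted p (0.0191 and 0.0279, limma) and fell short of 1.5-fold. There 1.54% and 0.613% of all clusters were called higher. At 1 h the change of 0.365 (95% interval 0.155 to 0.575) had a limma adjusted p of 0.262, and 0.467% of all clusters were called higher. The 4 h and 8 h calls held when each of the 12 arrays was left out in turn, with changes of 0.865 to 0.985 and of 1.075 to 1.195. In a fit of only the 4 arrays of 8 h and 0 h, Ube2l6 at 8 h was not called (limma adjusted p = 0.0554).

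Ordered by level, Ube2l6 ran 8 h, 4 h, 24 h, 2 h, 1 h and 0 h, and no pair of neighbours in that order met the call. Between 1 and 2 h, 0.369% of all clusters were called higher and 0.0814% lower. Between 2 and 4 h the shares were 1.38% and 0.789%, between 4 and 8 h 1.68% and 1.62%, and between 8 and 24 h 0.21% and 1%. At 24 h they were 0.866% and 1.68% against 2 h, and 3.26% and 3.66% against 4 h. The step from 4 h to 8 h was 0.21 (95% interval 0.000445 to 0.4196, limma adjusted p = 0.328). The levels at 24 h and 2 h differed by 0.005 (95% interval -0.205 to 0.215, limma adjusted p = 0.994). From 8 h to 24 h the level changed by -0.58 with a limma adjusted p of 0.0249, just under the 1.5-fold limit of 0.585. From 4 h to 24 h it changed by -0.37 (limma adjusted p = 0.0431), also short of that limit. Times further apart in the order did meet the call. The 8 h level was above 1 h by 0.77 (limma adjusted p = 0.00583). It was above 2 h by 0.585, at the limit (limma adjusted p = 0.0192). Shares of all clusters were not counted for these pairs. Against 8 h, the 24 h level kept 48.9% of the log2 change, and 81.5% of it was present at 4 h.

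Most genes called higher after Ifn-β had their highest mean before 8 h. Of 737 genes called higher at any time, 534 (72.5%) had their highest mean at 4 h and 84 (11.4%) at 8 h. Ube2l6 was among 73 genes called higher at 4 and 8 h and at no other time. By size of change it ranked 586 of 14860 genes at 1 h, 411 at 4 h and 141 at 8 h.

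**Figure D2:**
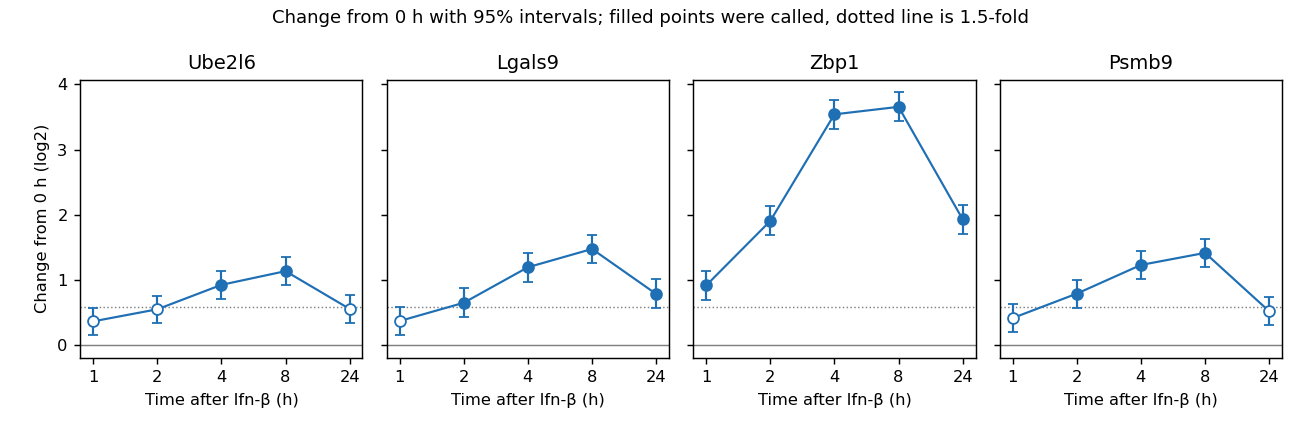
Change from 0 h in log2 units against hours after Ifn-β (times evenly spaced) for Ube2l6 and the genes most like it, with 95% intervals, filled points called and a dotted line at 1.5-fold. The curve of Ube2l6 reached 0.925 at 4 h and 1.135 at 8 h and was at 0.555 at 24 h. Those of Lgals9, Zbp1 and Psmb9, picked for their likeness to Ube2l6 over these same arrays, were highest at 8 h.

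Over the 12 arrays, the genes whose levels were most like those of Ube2l6 were Lgals9 (Pearson's r = 0.989), Zbp1 (0.982) and Psmb9 (0.981). The arrays of one time share their treatment, so these values describe 6 times rather than 12 independent points. Lgals9 encodes galectin-9, a lectin that binds cell surface sugars. Zbp1 encodes a sensor of nucleic acids in Z form, and Psmb9 a catalytic subunit of the immunoproteasome, which cuts proteins for antigen presentation. An r of at least 0.95 was reached by 18 genes of 14859, and the next in order were Xdh and Slc15a3. Lgals9 stayed first in each setting tried, while over the 6 means the first 3 were Lgals9, Cybb and Ankfy1. Psmb9 left the first 3 without array 2, 4, 5, 8, 15, 16 or 23, and Zbp1 left them without array 10.

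The values of Lgals9, Zbp1 and Psmb9, picked for their likeness to Ube2l6, are given as a description. The 0 h arrays of Lgals9 gave 10.52 and 10.59, the 4 h arrays 11.72 and 11.78, the 8 h arrays 11.97 and 12.09, and the 24 h arrays 11.33 and 11.35. These groups did not overlap, and the change at 8 h was 1.475 (SE 0.0968, limma adjusted p = 9.08e-05). Calls of a higher level came at 2, 4, 8 and 24 h. Those at 2 and 24 h were lost with only the arrays compared (limma adjusted p = 0.325 and 0.122). The call at 2 h (0.65) was lost without array 2 or array 4 (limma adjusted p = 0.0945 and 0.0614). That at 24 h (0.785) was lost without array 2, 17 or 22 (limma adjusted p = 0.0922, 0.0864 and 0.0856).

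Zbp1 moved much further, from 7.32 and 7.38 at 0 h to 10.97 and 11.04 at 8 h. Its change at 8 h was 3.655, or 12.6-fold (limma adjusted p = 8.63e-07), and it was called higher at all 5 times. Without array 5 the 1 h call (0.915) was lost (limma adjusted p = 0.0567). In fits of only the arrays compared, its 1 h and 24 h calls were lost (limma adjusted p = 0.2005 and 0.122). Psmb9 went from 9.21 and 9.3 to 10.65 and 10.69 at 8 h, a change of 1.415 (limma adjusted p = 9.53e-05). It was called higher at 2, 4 and 8 h, and the 2 h call was lost with only the arrays compared (limma adjusted p = 0.239). In Psmb9 the promoter window held no ISRE core.

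Beyond the conjugation enzymes, 11 genes whose proteins act with ISG15, Usp18 or the ligases were compared. All 11 had a cluster, and 3 of them, Trim25, Stat2 and Skp2, were called at some time, where 9.12% of all clusters were called higher or lower at any time. At 4 h, 2 were called higher and 1 lower, where 3.95% of all clusters were called lower. The lower calls among all clusters made up 0.0814% of them after 1 h, 0.621% after 2 h, 0.544% after 8 h and 0.836% after 24 h. At 4 h the median change of the list was -0.12 against -0.07 over all clusters.

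Trim25, reported in human cells as an ISG15 E3 ligase and known for its part in RIG-I signalling, was highest at 2 h. Its 0 h arrays gave 9.43 and 9.51, the 1 h arrays 10.22 and 10.25, the 2 h arrays 10.73 and 10.81, and the 4 h arrays 10.09 and 10.12. All arrays from 1 to 4 h were above those of 0 h, with the 2 h pair highest. The change was 1.3 at 2 h (SE 0.0929, limma adjusted p = 0.000132) and 0.635 at 4 h (limma adjusted p = 0.00426), and the level fell by 0.665 from 2 h to 4 h (limma adjusted p = 0.0113). The 1 h call (0.765) was lost without array 2, 4, 5 or 8 (limma adjusted p up to 0.111). In fits of only the arrays compared, its calls at 1, 2 and 4 h were all lost (limma adjusted p = 0.263, 0.0709 and 0.0567).

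Stat2, which joins ISGF3 and in human cells brings USP18 to the receptor, was called higher at all 5 times. Its 0 h arrays gave 8.81 and 9.01, the 4 h arrays 11.34 and 11.4, the 8 h arrays 10.9 and 10.98, and the 24 h arrays 9.9 and 9.99. No array after treatment overlapped 0 h. The change was 2.46 at 4 h (SE 0.1036, limma adjusted p = 3.45e-06) and 2.03 at 8 h, and the difference between those times, -0.43, was not called (limma adjusted p = 0.0675). The 1 h call (0.795) was lost without array 4, 5 or 8 (limma adjusted p = 0.119, 0.114 and 0.108), and the 24 h call (1.035) without array 17 (limma adjusted p = 0.0523). With only the arrays compared, the calls at 1, 2 and 24 h were lost (limma adjusted p = 0.3145, 0.0507 and 0.122).

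Skp2, a ubiquitin ligase subunit reported in human cells to mark USP18 for degradation, was called at 4 h only, when it fell by 0.975 on the log2 scale (limma adjusted p = 0.00771). Its 0 h arrays gave 8.35 and 8.57, the 4 h arrays 7.47 and 7.5, and the 8 h arrays 8.27 and 8.36, so the 4 h pair lay below and the 8 h pair overlapped 0 h. At 2 h the change was -0.67 (limma adjusted p = 0.089), which without array 10 was -0.92 and called (limma adjusted p = 0.0109). The 4 h call was lost without array 2, 15 or 16 (limma adjusted p = 0.0678, 0.0551 and 0.0577).

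Of 14 genes whose proteins have been reported to carry ISG15, 9 had a cluster and 4 were called at some time, against 9.12% of all clusters. Ifit1, Mx1 and Ddx58 were called higher at all 5 times. In fits of only the arrays compared, their 1 h calls (limma adjusted p = 0.0806, 0.0806 and 0.1897) and 24 h calls (0.122 each) were lost. Ifit1 binds foreign RNA, Mx1 blocks virus replication, and Ddx58 encodes the RNA sensor RIG-I. The median change of the list was 0.26 at 4 h and 0.31 at 8 h, against -0.07 and -0.01 over all clusters.

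The 0 h arrays of Ifit1 gave 7.71 and 8.24, both 1 h arrays 11.56, the 4 h arrays 12.79 and 12.84, and the 8 h arrays 10.76 and 10.8. Every treated array was above both 0 h arrays, and the 4 h pair was the highest. Its change was 4.84 at 4 h (limma adjusted p = 7.50e-07), and it fell by 2.035 from 4 h to 8 h (limma adjusted p = 0.000717). Over that interval Ube2l6 differed by 0.21, which was not called.

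The 0 h arrays of Mx1 gave 6.3 and 6.58, the 4 h arrays 11.59 and 11.69, and the 8 h arrays 10.62 and 10.68, with no overlap between times. Its change was 5.2 at 4 h (limma adjusted p = 2.30e-07), and it fell by 0.99 by 8 h (limma adjusted p = 0.00483). The 24 h call (1.185) was lost without array 22 (limma adjusted p = 0.0632). Ddx58 rose by 2.86 at 4 h and fell by 0.9 by 8 h (limma adjusted p = 1.41e-06 and 0.0035). The difference in timing between these genes and Ube2l6 was not itself tested.

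The fourth was Ube2e1, an E2 enzyme of the ubiquitin pathway, with 8.69 and 8.97 in the 0 h arrays, and 9.52 and 9.66 in the 4 h arrays. The 4 h arrays were above those of 0 h and the change of 0.76 was called (SE 0.1943, limma adjusted p = 0.0471). This call was lost when any array other than 10 or 12 was left out, with changes of 0.62 to 0.9 and a limma adjusted p up to 0.224.

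Of 10 genes of interferon receptor signalling, 9 had a cluster and 4 were called at some time (Stat2, Irf9, Socs1 and Socs3), against 9.12% of all clusters. Socs1, an inhibitor of Jak kinases, was highest at 2 h, with 7.8 and 7.86 in the 0 h arrays, 10.28 and 10.43 in the 2 h arrays and 7.84 and 7.99 in the 8 h arrays. The 2 h arrays were far above 0 h and the 8 h arrays overlapped it. The changes were 2.525 at 2 h (limma adjusted p = 6.20e-06) and 0.085 at 8 h (limma adjusted p = 0.804). Irf9, the DNA-binding part of ISGF3, was called at 2 h (0.77, limma adjusted p = 0.0132) and 8 h (0.595, limma adjusted p = 0.0445). Both calls of Irf9 were lost with only the arrays compared (limma adjusted p = 0.295 and 0.173). Its 24 h change was 0.59 (limma adjusted p = 0.0552), which became a call without array 10 or array 12 (limma adjusted p = 0.0187). The 2 h call was lost without array 4 (limma adjusted p = 0.102), and the 8 h call was lost without any one array except 10 or 12 (limma adjusted p 0.0858 to 0.283). Jak1, Tyk2, Ifnar1, Ifnar2 and Ifnb1 were not called at any time.

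**Figure D3:**
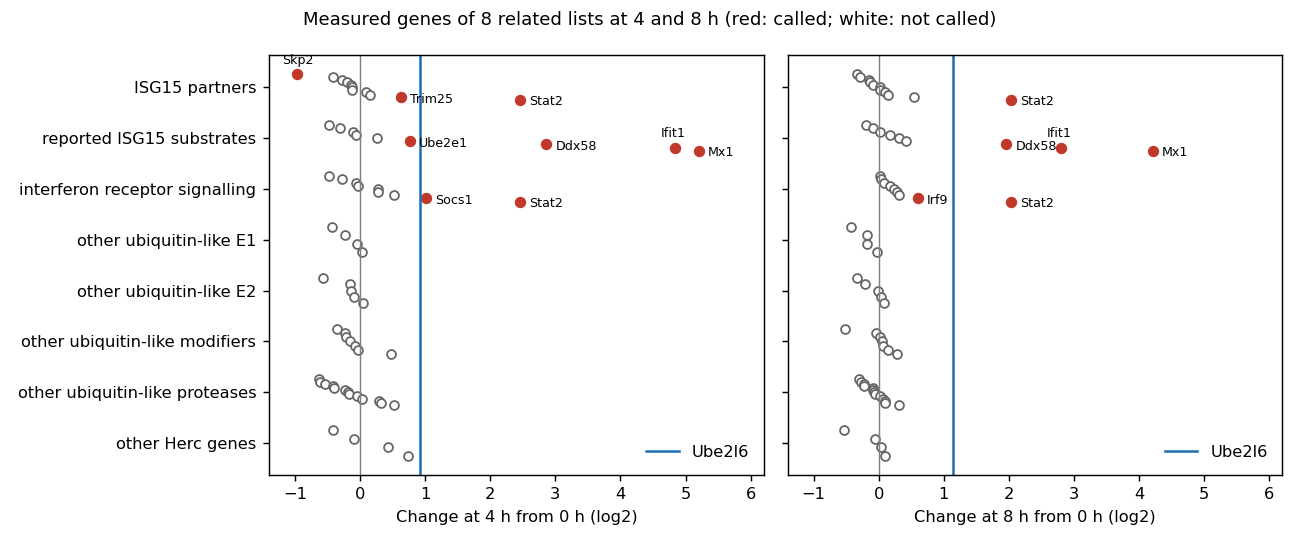
Log2 change from 0 h at 4 h and at 8 h of the measured genes of 8 related lists, with red points called, white points not called and a blue line at the change of Ube2l6. The called genes lie among partners, reported substrates and receptor signalling. None of the 33 genes of the other ubiquitin-like systems and Herc genes was called. Of all clusters, 3.59% were called higher and 3.95% lower at 4 h, and 1.5% and 0.544% at 8 h.

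Other ubiquitin-like systems compared were those of ubiquitin, SUMO, NEDD8, UFM1 and the autophagy modifiers. Their genes with the same roles, and the other Herc genes, gave no call with limma at any time in the fit reported. Over all clusters 9.12% were called at some time, and at 4 h 3.59% were called higher and 3.95% lower. The count of 0 was not tested against these shares. At 4 h, 7 of 10 alternatives called 1 or 2 of these genes higher. Of 48 such genes 33 had a cluster, 4 as E1, 5 as E2, 7 as modifiers, 13 as proteases and 4 as Herc genes. At an unadjusted p under 0.05 with 1.5-fold, 2 genes passed at 2 h (Senp8 and Ufsp1), 3 at 4 h (Senp6, Atg4c and Herc3) and 0 at the other times. Their median change was -0.15 at 4 h and -0.03 at 8 h, and the highest was 0.31 at 8 h. Without array 10, 6 were called lower at 2 h. Without array 10, and likewise without array 12, 1 was called higher and 2 lower at 4 h.

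Ube2l3, the closest relative of Ube2l6, read 10.88 and 11.07 at 0 h and 10.95 and 10.98 at 8 h, so its 8 h arrays lay between those of 0 h. Its change was -0.01 at 8 h (95% interval -0.286 to 0.266) and -0.09 at 4 h (95% interval -0.366 to 0.186). Herc1 and Herc2, large relatives of Herc6, had 4 h changes of -0.095 and -0.41, and Herc4 had 0.43. Herc3 had 0.73 at 4 h with a limma adjusted p of 0.0522.

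Across all 27 measured genes with an Ube2 symbol, the E2 family of ubiquitin and its relatives, Ube2l6 was the one called higher at 8 h, against 1.5% of all clusters. The next highest change at 8 h was 0.42, of Ube2e1, and the median was -0.08. This set was drawn up after the values were seen. Its 8 h count stayed at 1 when each array was left out, and fell to 0 in the fit of only 4 arrays. Ube2t, an E2 of the Fanconi anaemia pathway, was called lower at 4 h (-1.46), and Ube2c, an E2 of the cell cycle, at 24 h (-0.62). Of all clusters, 3.95% were called lower at 4 h and 0.836% at 24 h. The 24 h count of lower calls did not hold in any fit with an array left out, and 7 of 10 alternatives changed it.

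**Figure D4:**
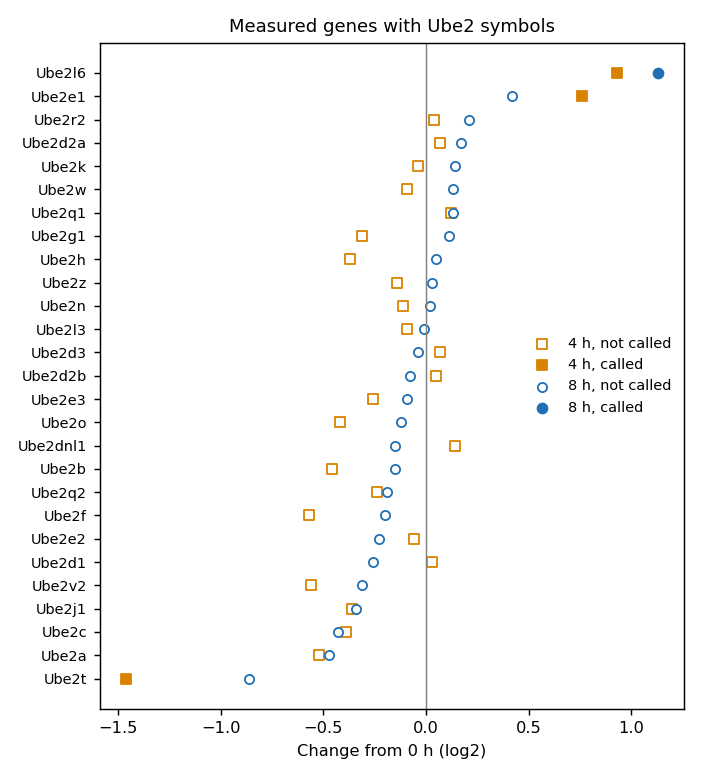
Log2 change from 0 h at 4 h and 8 h of the 27 measured genes with an Ube2 symbol, ordered by the 8 h change, with filled points called. Ube2l6 stood at 1.13 at 8 h, Ube2e1 at 0.42 and the lowest, Ube2t, at -0.86.

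Markers of the labelled cell type were looked up at 0 h. Of the macrophage markers, 6 of 7 measured lay above the upper quartile of all clusters (8.03), and Mertk (6.765) did not, while 0 of 26 markers of 8 other cell types did. Probes differ in brightness, so these signals are a description and no test of cell identity. Of all 33 markers, 4 were called at some time, against 9.12% of all clusters. Fcgr1 was higher at all 5 times, Cd14 was lower at 4 and 8 h, Cd4 was higher at 24 h, and Kdr was higher at all 5 times while the other endothelial markers, Cdh5 and Tek, were not called.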

How the data were processed

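Total RNA from 12 wells of BMDM was measured on Mouse Exon 1.0 ST arrays. For the deposited log2 values, the authors ran RMA on core genes in Affymetrix Expression Console (background removal, quantile normalization, probe summary). Its version was not given in the sources used here. RMA works to make array distributions alike, so values are relative to each array. Array medians ran from 5.84 to 5.9. Upper quartiles still differed, from 7.77 in array 12 to 8.15 in array 10, both arrays of 2 h. Those of the 4 h arrays were 7.86 and 7.89, below the 8.09 and 7.97 of the 0 h arrays. The 4 h arrays also had the lowest medians, 5.84 each. No test set the level of one gene against another's. Precision is limited by the count of arrays, 2 per time.

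All 12 arrays in 6 groups were fitted with limma (version 3.58.1, R 4.3.3), with p-values adjusted within each contrast over 23332 clusters. A call needed an adjusted p under 0.05 and 1.5-fold. The p-values measure the spread between wells, which may share mice. Gene names came from the platform annotation, where 14996 clusters have 1 symbol, 1019 several and 7317 none. Named genes were the listed members, the 3 genes most correlated with Ube2l6, called genes of the related lists and the closest paralogs. Members and lists were chosen with earlier results of these data known. Promoter sequences came from RefSeq, and Usp18, Zbp1 and Mx1 have no entry in the table used.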

Additional observations from a re-analysis of the deposited data

How the results depend on the processing

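With 2 arrays per time, modest changes sit near the thresholds. Alternatives for Ube2l6 were listed at the start, and those for related genes were added after the data were seen. The rise of Ube2l6 kept its direction throughout. With no fold threshold, its changes at 2 h (0.55, adjusted p = 0.0191), at 24 h (0.555, adjusted p = 0.0279) and from 8 h to 24 h (-0.58, adjusted p = 0.0249) were called in limma. The last was also called with each array centred on its median (-0.585, adjusted p = 0.0224). With a 2-fold threshold the 4 h change (0.925) was not called, and with only the arrays of the times compared the 8 h change (1.135) was not (limma adjusted p = 0.0554). That fit also called 0 related genes higher at 1 h, 4 at 2 h and 0 at 24 h, against 7, 8 and 4. Of the 59 related genes, 0 were called lower at 2 h in limma, against 3 at an unadjusted p, 2 with quantile normalization applied again, and 1 each with the lowest 30% of clusters left out or only clusters of 1 symbol. At 4 h 1 was called lower, against 3 at an unadjusted p, 3 with no fold threshold, 0 at 2-fold, 3 with array weights, 2 with the lowest 30% left out and 3 with only clusters of 1 symbol. Leaving out each array gave 0 to 7 called lower at 2 h (7 without array 10) and 0 to 3 at 4 h. The 33 genes of other ubiquitin-like systems, with no call in the fit reported, gave up to 2 higher calls at 4 h in 7 of 10 alternatives, up to 2 lower calls at 4 h in 5, and up to 2 lower calls at 2 h in 2. By the 6 means, 1 of the 3 most similar genes was shared. The uncalled change of Ube2e1 turned sign at 1 h with quantile normalization applied again (-0.053) and, with arrays left out, ranged from -0.12 to 0.16 for 1 h, -0.06 to 0.4 for 2 h and -0.24 to 0.12 for 24 h, turning sign without array 4 or 8, 10, and 2 or 17. The cause of these differences was not tested. Ube2l6 has 1 cluster, so no other cluster could be tried. No paired analysis was possible because the arrays of different times share no replicate number.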
